A study of Homo sapiens with 9 samples.

Results

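The 10 genes described here encode proteins of azurophil granules or proteins that act on them, and were taken by gene name from the 60623 gene identifiers of the deposited tables. They are MPO, the serine protease genes ELANE, PRTN3, CTSG and PRSS57, the protease homologue gene AZU1, the lysozyme gene LYZ, the proteoglycan gene SRGN, and the inhibitor genes SERPINB1 and CST7. Each name had 1 identifier. RNA-seq was performed on U937, a human monocytic leukemia cell line, in 3 stable lines made by retroviral transduction. The control line carried the empty vector (called control cells below), a further line (clone #4) carried HA-tagged AML1-ETO, and another (clone #14) carried HA-tagged ETO2-GLIS2, with both fusion constructs under a doxycycline-inducible promoter. All 3 lines, the control included, received doxycycline at 5 μg/ml and were harvested at 0, 12 and 48 h. With 1 library in each of the 9 conditions, no difference could be checked against replicates and no test between conditions was possible. Each fusion protein is represented by 1 clone, so a property of the clone and an effect of the fusion protein cannot be told apart.

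Azurophil granules are the primary granules of neutrophil and monocyte precursors, and their genes are transcribed mainly at the promyelocyte stage and then shut off as the cells mature. The serine proteases are made as zymogens, are trimmed to active enzymes by cathepsin C, and are packed onto the negatively charged chains of serglycin. Myeloperoxidase is a heme enzyme that makes hypochlorous acid. AML1-ETO joins the Runt DNA-binding domain of RUNX1 to the corepressor ETO (RUNX1T1), and ETO2-GLIS2 joins the corepressor ETO2 (CBFA2T3) to the zinc fingers of GLIS2.

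The values are FPKM, the reads on a gene per kilobase of its exons and relative to a read total of the library. The reads behind the FPKM values were recovered for all members, and the implied totals were between 15136000 and 18444000 reads on genes per library. RUNX1T1, which is part of AML1-ETO, was at 0.512, 22.2 and 28.7 FPKM at 0, 12 and 48 h in AML1-ETO cells and at most 0.024 FPKM in the other lines. In ETO2-GLIS2 cells, CBFA2T3 went from 4.1 to 12.6 FPKM and GLIS2 from 2.39 to 8.85 FPKM between 0 and 48 h, so the libraries matched their labels. In AML1-ETO cells CBFA2T3 went from 5.26 to 0.22 FPKM. Among 6 markers of U937 cells, all were above 0 in every library, and their summed level ranged from 287 FPKM in the AML1-ETO library at 48 h to 419 FPKM in the ETO2-GLIS2 library at 48 h. Of 14 markers of lymphoid, erythroid, platelet, epithelial and stromal cells, 9 were listed at 0 in the AML1-ETO library at 48 h and 10 in each other library. NKG7, a granule membrane gene of natural killer cells, led this list in every library, with 56.5 to 89.9 FPKM in 8 libraries and 9.42 FPKM in the AML1-ETO library at 48 h. The summed level of the list ranged from 60.1 to 94.1 FPKM in the 8 libraries and was 11.5 FPKM in that one, and its part in the results was not tested. In bulk RNA, fewer cells with a transcript and less transcript per cell cannot be told apart.

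Promoters of 5 members were found in the RefSeq table for GRCh38.p14, and they are shown because several of the known regulators of these genes bind close to the transcription start. Each sequence is the 250 bases before the start, 5′ to 3′ on the strand of the gene, and capitals mark the matches to the searched motifs. The windows are chr19:840749-840998 on the plus strand for PRTN3, chr19:827587-827836 on the plus strand for AZU1, chr14:24576251-24576500 on the minus strand for CTSG, chr6:2841864-2842113 on the minus strand for SERPINB1, and chr19:695453-695702 on the minus strand for PRSS57.
PRTN3: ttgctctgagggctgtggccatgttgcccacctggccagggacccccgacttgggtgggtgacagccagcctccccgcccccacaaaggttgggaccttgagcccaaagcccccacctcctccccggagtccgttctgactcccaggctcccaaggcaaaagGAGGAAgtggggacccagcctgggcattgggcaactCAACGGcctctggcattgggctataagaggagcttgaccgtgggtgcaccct
AZU1: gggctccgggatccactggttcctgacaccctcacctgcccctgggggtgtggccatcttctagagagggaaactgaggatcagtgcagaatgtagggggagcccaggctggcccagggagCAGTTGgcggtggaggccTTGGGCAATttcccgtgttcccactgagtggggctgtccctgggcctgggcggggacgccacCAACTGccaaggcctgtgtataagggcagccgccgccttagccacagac
CTSG: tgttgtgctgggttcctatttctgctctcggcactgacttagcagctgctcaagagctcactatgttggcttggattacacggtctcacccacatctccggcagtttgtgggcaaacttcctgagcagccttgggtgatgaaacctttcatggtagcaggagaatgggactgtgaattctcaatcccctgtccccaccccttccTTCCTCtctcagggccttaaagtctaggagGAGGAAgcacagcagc
SERPINB1: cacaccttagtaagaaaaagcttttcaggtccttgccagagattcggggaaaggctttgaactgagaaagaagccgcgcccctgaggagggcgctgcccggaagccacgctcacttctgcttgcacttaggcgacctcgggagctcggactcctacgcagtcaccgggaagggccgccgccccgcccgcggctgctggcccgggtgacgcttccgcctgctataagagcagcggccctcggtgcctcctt
PRSS57: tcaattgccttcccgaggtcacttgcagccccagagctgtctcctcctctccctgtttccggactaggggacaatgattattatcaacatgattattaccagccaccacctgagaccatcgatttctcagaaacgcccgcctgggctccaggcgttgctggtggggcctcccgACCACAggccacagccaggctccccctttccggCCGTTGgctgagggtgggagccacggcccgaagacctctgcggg
The motifs were searched on both strands, and no matches overlapped each other. The ETS motif GAGGAA, a core that PU.1 can bind, was found in PRTN3 from 88 to 83 bases before the start and in CTSG from 16 to 11 bases and, on the opposite strand, from 46 to 41 bases before the start. This motif occurs in 23.6% of 35116 promoters of the same length. The MYB motif CAACNG was present in PRTN3, AZU1 and PRSS57 and in 27.0% of all promoters. The CEBP motif TTNNGNAAT was present in AZU1, from 111 to 103 bases before the start, and in 9.85% of all promoters. The RUNX motif TGTGGT occurred in PRSS57 alone of the 5 and in 11.0% of all promoters, and the G-rich run GGGGGG used for GLIS was found in 0 of the 5 and in 17.6% of all promoters. A match is a match of letters, and binding was not analysed here.

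Before induction, most of these genes were among the most abundant transcripts of the cells. SRGN was the highest of the 10 in all 9 libraries, and its level per length at 0 h was 1350 FPKM in control cells, 2190 FPKM in AML1-ETO cells and 2090 FPKM in ETO2-GLIS2 cells. It was the 10th to 16th most abundant of all genes in those 3 libraries. LYZ, PRTN3 and ELANE followed, all between 327 and 1280 FPKM at 0 h. AZU1, CST7, CTSG and SERPINB1 came next in this order in each of the 3 uninduced libraries. PRSS57, at 2.16 to 2.98 FPKM, and MPO, at 0.154 to 0.2 FPKM, were far below the others. The summed level of the 10 genes at 0 h was 3188 FPKM in control cells, 5108 FPKM in AML1-ETO cells and 4799 FPKM in ETO2-GLIS2 cells.

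The uninduced lines were compared to see how the clones differed without doxycycline. The AML1-ETO library at 0 h already held 115 reads of RUNX1T1, and the control and ETO2-GLIS2 libraries at 0 h held 0. The part of this RNA in the differences at 0 h was not tested. The criterion for a call was a change of more than 2-fold on log2 of FPKM plus 0.01, in genes whose FPKM averaged at least 1 over the libraries compared. MPO stayed under this minimum throughout, so 9 of the 10 members were compared. In AML1-ETO cells at 0 h, 0 members were called against control cells, where 2.67% of all genes compared were called higher and 2.24% lower. PRTN3 and LYZ came closest to the limit, with log2 differences of 0.94 (95% interval 0.91 to 0.98) and 0.90 (0.87 to 0.93). In ETO2-GLIS2 cells LYZ was called higher, with a log2 difference of 1.30 (1.28 to 1.33), against a background of 3.42% higher and 2.99% lower. The intervals are Clopper-Pearson (exact) and were computed on recovered reads. They cover counting error only and treat each read as a separate molecule. The reads carry no molecular identifiers, so the intervals can be too narrow even for counting error.

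**Figure D1:**
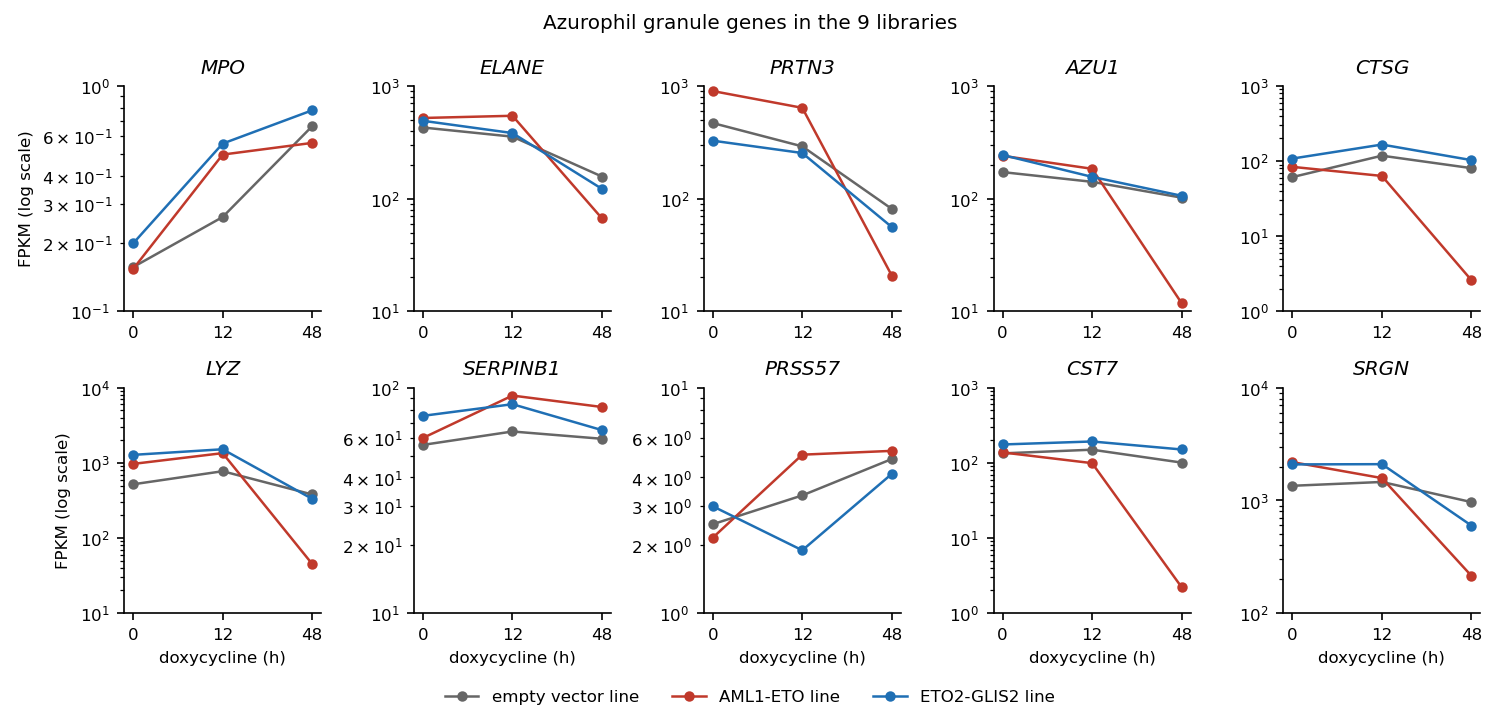
Level of each of the 10 genes in FPKM (log axis, with a different range in each panel) against hours of doxycycline in the empty vector (grey), AML1-ETO (red) and ETO2-GLIS2 (blue) lines, with 1 library per point. ELANE, PRTN3, AZU1, CTSG, LYZ, CST7 and SRGN were lowest in the AML1-ETO library at 48 h, while SERPINB1, PRSS57 and MPO were not.

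At 48 h of AML1-ETO induction, 7 of the 9 members compared fell more than 2-fold and 1 rose, whereas 11.3% of all genes compared were called lower and 17.3% higher. The genes that fell were 4 protease or protease homologue genes, the lysozyme gene, the serglycin gene and 1 inhibitor gene. The median log2 fold change of the 10 members was -3.85, and that of all 12030 genes compared was 0.22. Over the same interval, control cells had 2 members called lower and 0 higher, against 2.99% and 8.0% of all genes, and a member median of -0.43 beside 0.16 for all genes. In ETO2-GLIS2 cells 5 members were called lower and 0 higher, against 2.54% and 10.8% of all genes, with a member median of -0.71 beside 0.16. These member medians include MPO, which was under the minimum for a call described above, and over the 9 members compared they were -0.45 for control, -4.34 for AML1-ETO and -1.19 for ETO2-GLIS2 cells.

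ELANE (ENSG00000197561, chr19:852303-856243) encodes neutrophil elastase, which cleaves bacterial proteins and extracellular matrix. ELANE was at 428, 355 and 157 FPKM at 0, 12 and 48 h in control cells, at 520, 544 and 66.7 FPKM in AML1-ETO cells, and at 491, 382 and 122 FPKM in ETO2-GLIS2 cells. It fell past the limit at 48 h in all 3 lines, and AML1-ETO cells, highest of the 3 at 12 h, were the lowest at 48 h. The log2 fold change from 0 to 48 h was -1.45 (-1.51 to -1.38) in control cells, -2.96 (-3.06 to -2.87) in AML1-ETO cells and -2.01 (-2.08 to -1.94) in ETO2-GLIS2 cells.

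PRTN3 (ENSG00000196415, chr19:840999-848175) encodes proteinase 3, the close relative of elastase that is the main target of autoantibodies in granulomatosis with polyangiitis. PRTN3 was at 469, 291 and 81.0 FPKM in control cells, at 902, 640 and 20.7 FPKM in AML1-ETO cells, and at 327, 254 and 55.9 FPKM in ETO2-GLIS2 cells. The level was lower at each later time in every line, and AML1-ETO cells went from the highest of the 3 at 0 and 12 h to the lowest at 48 h. Its log2 change by 48 h was -5.45 (-5.61 to -5.30) in AML1-ETO cells. It was -2.53 (-2.62 to -2.45) in control cells and -2.55 (-2.64 to -2.45) in ETO2-GLIS2 cells, so these intervals overlapped.

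AZU1 (ENSG00000172232, chr19:827837-832018) encodes azurocidin, which has the protease fold without protease activity and kills bacteria. AZU1 was at 172, 141 and 102 FPKM in control cells, at 240, 184 and 11.8 FPKM in AML1-ETO cells, and at 244, 156 and 106 FPKM in ETO2-GLIS2 cells. At 48 h the control and ETO2-GLIS2 libraries were close to each other, and the AML1-ETO library was 20.3-fold below its own level at 0 h. Its log2 change by 48 h was -4.34 (-4.51 to -4.18) in AML1-ETO cells, -1.19 (-1.25 to -1.13) in ETO2-GLIS2 cells and -0.75 (-0.82 to -0.69) in control cells.

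CTSG (ENSG00000100448, chr14:24573518-24576250) encodes cathepsin G, a granule protease with chymotrypsin-like activity. CTSG was at 61.2, 118 and 80.5 FPKM in control cells, at 83.8, 63.4 and 2.59 FPKM in AML1-ETO cells, and at 108, 166 and 103 FPKM in ETO2-GLIS2 cells. The AML1-ETO library at 48 h stood apart from the other 8, which lay between 61.2 and 166 FPKM. Its log2 fold change was -5.01 (-5.43 to -4.62), beside 0.40 (0.29 to 0.50) in control cells and -0.07 (-0.15 to 0.01) in ETO2-GLIS2 cells.

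PRSS57 (ENSG00000185198, chr19:685546-695452) encodes neutrophil serine protease 4, the least abundant of the granule proteases. PRSS57 was at 2.48, 3.33 and 4.83 FPKM in control cells, at 2.16, 5.05 and 5.25 FPKM in AML1-ETO cells, and at 2.98, 1.9 and 4.15 FPKM in ETO2-GLIS2 cells. These values rest on 37 to 87 reads. It was the 1 member that rose in AML1-ETO cells, with a log2 fold change of 1.28 (0.72 to 1.86), and control cells reached 0.96 (0.41 to 1.52), close to the limit. The interval of ETO2-GLIS2 cells, 0.47 (-0.04 to 0.99), included 0.

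LYZ (ENSG00000090382, chr12:69348381-69354234) encodes lysozyme, which cuts the peptidoglycan of bacterial cell walls and is also made by maturing monocytes. LYZ was at 519, 775 and 380 FPKM in control cells, at 970, 1350 and 45.1 FPKM in AML1-ETO cells, and at 1280, 1520 and 332 FPKM in ETO2-GLIS2 cells. All 3 lines were highest at 12 h and lowest at 48 h. The log2 fold change from 0 to 48 h was -4.43 (-4.51 to -4.34) in AML1-ETO cells, -1.95 (-1.98 to -1.92) in ETO2-GLIS2 cells and -0.45 (-0.49 to -0.41) in control cells. An antisense RNA gene covers 34.7% of the exon bases of LYZ, and the library kit does not mark strand. That gene was listed at 0 in all 9 libraries, and whether reads over the shared bases were left out of both genes was not tested. The exon length implied by the values of LYZ was 1764 bases, beside 1724 in the annotation used here, and its level per length depends on it.

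SRGN (ENSG00000122862, chr10:69087603-69104811) encodes serglycin, the granule proteoglycan whose chains hold the basic proteases. SRGN was at 1350, 1460 and 967 FPKM in control cells, at 2190, 1580 and 214 FPKM in AML1-ETO cells, and at 2090, 2100 and 598 FPKM in ETO2-GLIS2 cells. It remained the highest of the 10 genes even in the AML1-ETO library at 48 h. Its log2 change by 48 h was -3.36 (-3.40 to -3.31) in AML1-ETO cells, -1.81 (-1.84 to -1.78) in ETO2-GLIS2 cells and -0.48 (-0.51 to -0.45) in control cells.

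MPO (ENSG00000005381, chr17:58269855-58280935), the defining enzyme of azurophil granules, was nearly absent from these cells. MPO was at 0.157, 0.262 and 0.663 FPKM in control cells, at 0.154, 0.496 and 0.559 FPKM in AML1-ETO cells, and at 0.2, 0.555 and 0.78 FPKM in ETO2-GLIS2 cells. Its implied exon length was 3526 bases, beside 4427 in the annotation used here, so its level per length depends on the annotation. The libraries held between 9 and 45 reads of MPO, and all 3 lines had the fewest at 0 h. Its log2 change by 48 h was 2.01 (1.0 to 3.32) in control cells, 1.80 (0.75 to 3.12) in AML1-ETO cells and 1.91 (1.05 to 2.98) in ETO2-GLIS2 cells. These counting intervals overlapped, and with 1 library per condition a difference between the lines could not be tested.

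The 2 inhibitors took different courses. SERPINB1 (ENSG00000021355, chr6:2832332-2841863) encodes a cytosolic serpin that inactivates elastase, proteinase 3 and cathepsin G. SERPINB1 was at 55.8, 64.0 and 59.4 FPKM in control cells, at 59.9, 92.4 and 82.2 FPKM in AML1-ETO cells, and at 75.1, 84.6 and 64.9 FPKM in ETO2-GLIS2 cells. It was called in no comparison, and its highest and lowest libraries differed 1.66-fold. In AML1-ETO cells at 48 h its log2 fold change was 0.46 (0.39 to 0.53). In control cells it was 0.09, which became -0.04 after rescaling by the median ratio.

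CST7 (ENSG00000077984, chr20:24949269-24959928) encodes cystatin F, an inhibitor of cathepsin C and other lysosomal cysteine proteases. CST7 was at 134, 150 and 101 FPKM in control cells, at 138, 99.3 and 2.21 FPKM in AML1-ETO cells, and at 176, 193 and 151 FPKM in ETO2-GLIS2 cells. The AML1-ETO library at 48 h was again far below the other 8, which lay between 99.3 and 193 FPKM. Its log2 fold change of -5.95 (-6.53 to -5.44) was the largest fall among the members, and 0.416% of the 12030 genes compared in AML1-ETO cells had a lower value. The change was -0.41 (-0.51 to -0.31) in control cells and -0.23 (-0.31 to -0.14) in ETO2-GLIS2 cells.

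**Figure D2:**
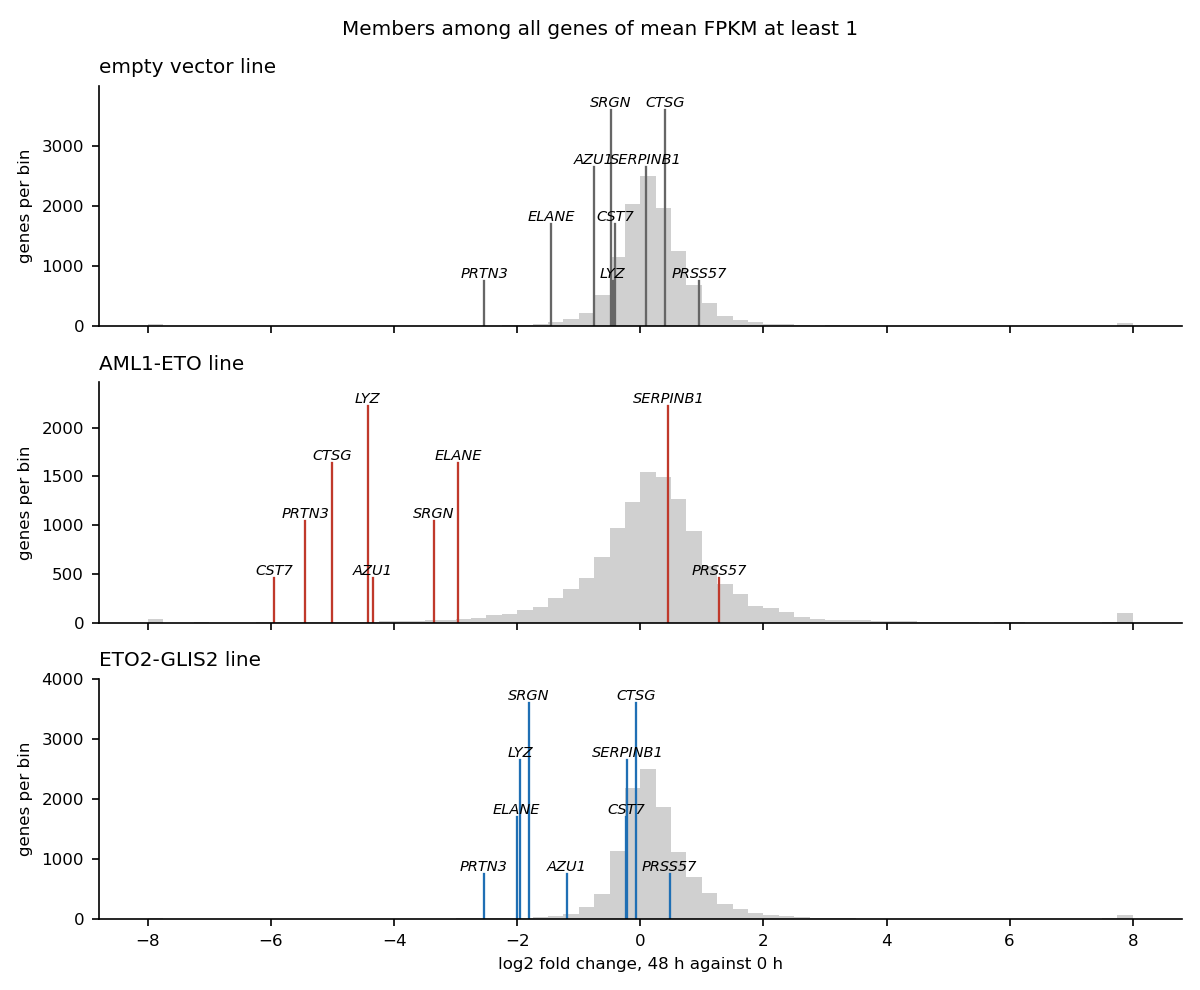
Number of genes per bin of log2 fold change from 0 to 48 h (bin width 0.25, grey bars, with genes past 8 in either direction placed in the end bins) for genes of mean FPKM at least 1 in each line, with the 9 compared members as coloured lines whose height has no meaning. In AML1-ETO cells 7 members sit between -5.95 and -2.96, and SERPINB1 and PRSS57 sit above 0.

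To set aside what doxycycline and time did in the control, the log2 fold change that the control showed at 48 h was subtracted. In AML1-ETO cells 7 of 9 members stayed lower by more than 2-fold and 0 were higher, against 12.6% and 11.5% of all genes. The differences were -5.54 for CST7, -5.40 for CTSG, -3.98 for LYZ, -3.59 for AZU1, -2.92 for PRTN3, -2.88 for SRGN and -1.52 for ELANE. Of the 7, ELANE and PRTN3 also fell past the 2-fold limit in the control. For ETO2-GLIS2 cells only LYZ, at -1.50, and SRGN, at -1.33, stayed lower by more than 2-fold and 0 members were higher, against 3.93% and 4.69% of all genes. LYZ started above the control in that line and ended at 332 FPKM beside 380 FPKM, and against the control library at 0 h its log2 difference at 48 h was -0.64, within the limit. PRTN3 differed from the control by -0.01, CST7 by 0.18 and ELANE by -0.57 in that line. Both subtractions used the same control libraries.

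The changes came mostly after 12 h. From 0 to 12 h, 0 members were called in control cells, where 5.64% of all genes were called higher and 1.88% lower. In ETO2-GLIS2 cells 0 members were called as well, against 3.03% and 1.46%. In AML1-ETO cells PRSS57 was called higher, with a log2 fold change of 1.22 (0.66 to 1.81), and 0 members were called lower, against 6.57% and 2.39%. The largest decrease among the members at 12 h in AML1-ETO cells was that of PRTN3, -0.49, followed by CST7, -0.47, and SRGN, -0.47. CTSG had opposite signs at 12 h, with -0.40 (-0.51 to -0.30) in AML1-ETO cells, 0.95 (0.85 to 1.05) in control cells and 0.62 (0.55 to 0.69) in ETO2-GLIS2 cells.

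From 12 to 48 h, 7 members fell in AML1-ETO cells, against 10.2% of all genes, and their log2 fold changes ranged from -5.48 for CST7 to -2.89 for SRGN. Control cells had 3 members called lower in this interval, against 3.04% of all genes, namely PRTN3 at -1.84, ELANE at -1.18 and LYZ at -1.03. ETO2-GLIS2 cells had 4 members called lower, against 2.14%, which were LYZ at -2.19, PRTN3 at -2.18, SRGN at -1.81 and ELANE at -1.65. PRSS57 was called higher there at 1.13, against 5.67% of all genes.

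**Figure D3:**
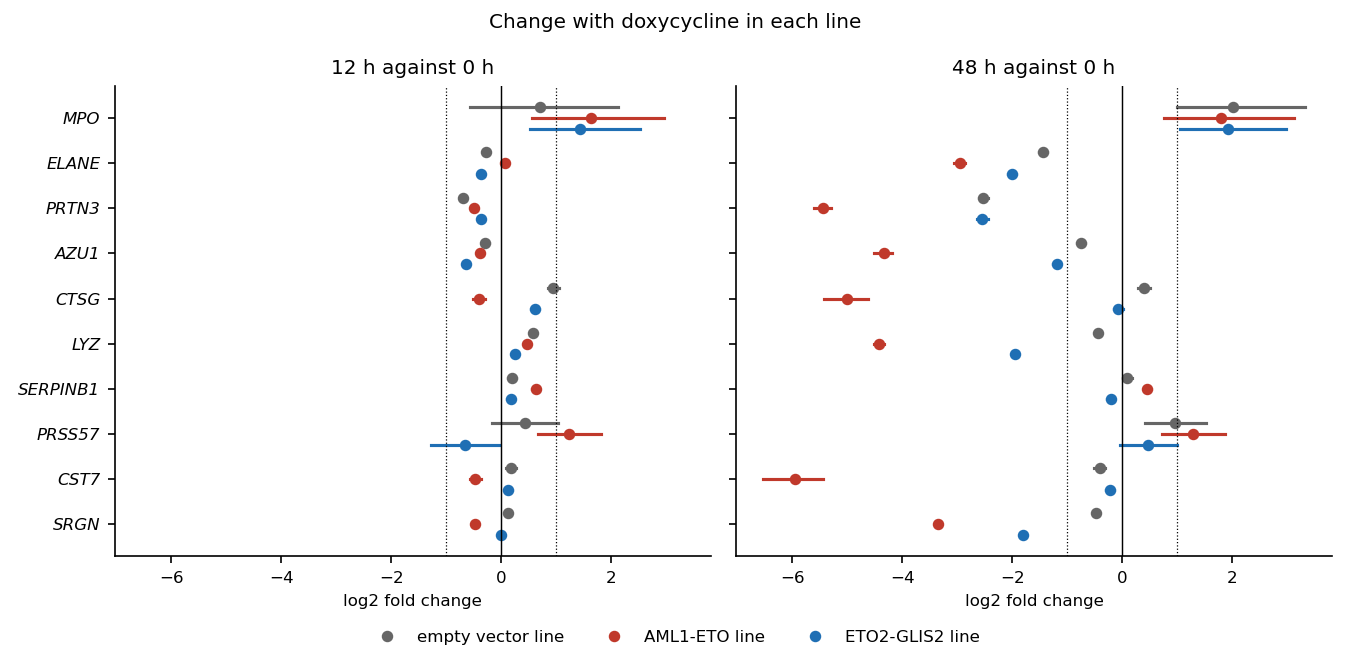
Log2 fold change of the 10 genes at 12 h (left) and 48 h (right) against 0 h in the empty vector (grey), AML1-ETO (red) and ETO2-GLIS2 (blue) lines, with bars for 95% counting intervals from the reads and dotted lines at the 2-fold limit. At 12 h PRSS57 in AML1-ETO cells is the called member, and at 48 h AML1-ETO cells hold 7 members below the lower limit.

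The makeup of the granule transcripts shifted along with their amount. The 10 genes together held 1.87% of all FPKM in AML1-ETO cells at 0 h and 0.183% at 48 h. This share went from 1.19% to 0.736% in control cells and from 1.69% to 0.616% in ETO2-GLIS2 cells. Of the summed FPKM of ELANE, PRTN3, AZU1 and CTSG, ELANE held 29.8% at 0 h and 65.5% at 48 h in AML1-ETO cells. It held 37.9% and 37.3% in control cells and 42.0% and 31.4% in ETO2-GLIS2 cells. AZU1 went from 13.8% to 11.6% of this sum in AML1-ETO cells, from 15.2% to 24.3% in control cells and from 20.8% to 27.5% in ETO2-GLIS2 cells. CTSG went from 4.8% to 2.55% of this sum in AML1-ETO cells, from 5.42% to 19.1% in control cells and from 9.27% to 26.6% in ETO2-GLIS2 cells. PRTN3 lost share in all 3 lines, from 51.7% to 20.3%, from 41.5% to 19.3% and from 27.9% to 14.4% in the same order. The summed level of these 4 genes over that of SERPINB1 was 29.1 at 0 h and 1.24 at 48 h in AML1-ETO cells, 20.2 and 7.09 in control cells, and 15.6 and 5.97 in ETO2-GLIS2 cells. The share of FPKM on mitochondrial genes also moved, between 23.5% in the control library at 0 h and 8.82% in the AML1-ETO library at 48 h. Rescaling without mitochondrial genes and members left 7 members lower in AML1-ETO cells.

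PRSS57, AZU1, PRTN3 and ELANE lie within 178 kb of chromosome 19, and AZU1, PRTN3 and ELANE lie within 28.4 kb of each other. The RefSeq table lists 14 genes from PRSS57 to CFD, of which 13 were found in the deposited tables. CFD (chr19:859664-863641), which encodes complement factor D and is next to ELANE, was at 30, 39 and 49.6 FPKM in control cells, at 65.4, 77.1 and 28.5 FPKM in AML1-ETO cells, and at 40.7, 31.5 and 22.9 FPKM in ETO2-GLIS2 cells. Its log2 change by 48 h was -1.20 in AML1-ETO cells, a fall smaller than those of the 3 granule genes beside it. PLPPR3, the protein-coding gene on the other side of AZU1, fell from 2.0 to 0.264 FPKM in AML1-ETO cells. PTBP1, a splicing regulator gene located between PALM and PLPPR3, went from 82.8 to 65.9 FPKM, and PALM went from 4.33 to 6.77 FPKM, neither past the limit. RPS2P52, MISP and LINC01836 were at most 0.24 FPKM in every library, the miRNA genes MIR4745 and MIR3187 were listed at 0, and LOC101928450 was the gene not matched. In AML1-ETO cells 3 of 4 members and 2 of 4 other genes compared in the interval fell, against 11.3% of all genes. In ETO2-GLIS2 cells 3 of 4 members and 0 of 3 others fell, against 2.54%, and in control cells 2 of 4 members and 0 of 4 others fell, against 2.99%. PLPPR3 was not compared in ETO2-GLIS2 cells because its mean was under the minimum. It went from 1.09 to 0.491 FPKM there, a log2 fold change of -1.13. In AML1-ETO cells the counted fall of PLPPR3 rests on 91 reads at 0 h and 11 at 48 h.

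**Figure D4:**
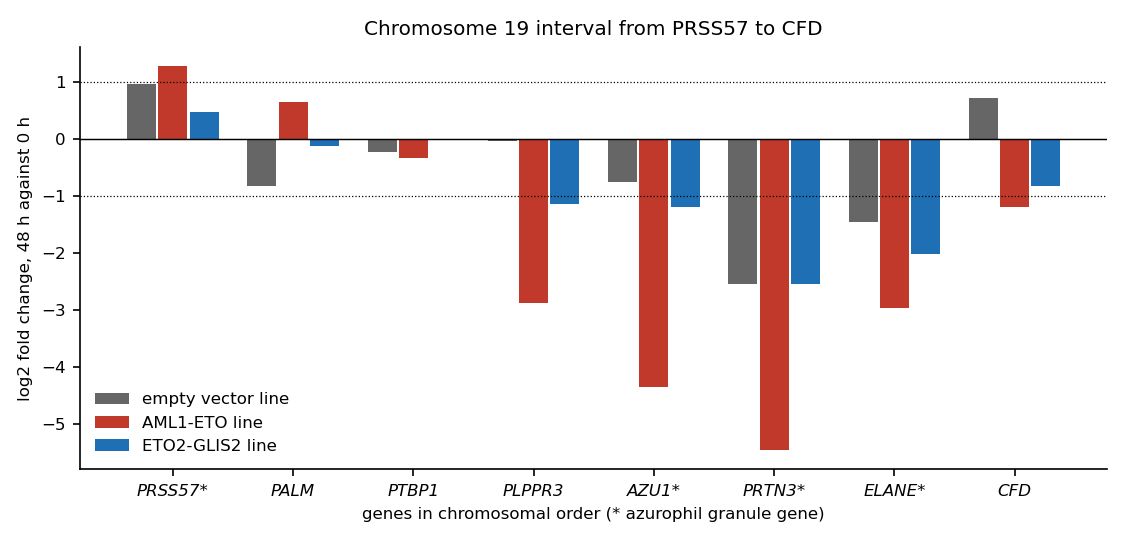
Log2 fold change from 0 to 48 h in the 3 lines for the genes from PRSS57 to CFD with a mean FPKM of at least 1 in 1 line or more, in chromosomal order and not to distance, with dotted lines at the 2-fold limit. The red bars of AML1-ETO cells go from 1.28 at PRSS57 through -5.45 at PRTN3 to -1.20 at CFD.

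On chromosome 14, CTSG lies between CMA1, which encodes mast cell chymase, and the granzyme genes GZMH and GZMB. CMA1 was at most 0.277 FPKM in any library, and GZMH and GZMB were listed at 0 in all 9 libraries, where 3 reads on a gene of 1 kb of exon would amount to 0.163 to 0.198 FPKM. Of these 4 genes, CTSG had a level above 1 FPKM in U937 cells.

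The falling genes did not all follow the same course over the libraries. On log2 of FPKM plus 0.01, Pearson's r between ELANE and PRTN3 was 0.978 over all 9 libraries and 0.958 without the AML1-ETO library at 48 h. Between CTSG and CST7 it was 0.987 and 0.803. Between CTSG and ELANE, r was 0.664 over all libraries and -0.136 without that library, and between CST7 and PRTN3 it was 0.679 and -0.019. These correlations describe 9 libraries that share lines and times and have no test. LYZ and SRGN had r of 0.967 and 0.887, and SERPINB1 had r between -0.315 and 0.058 with the 7 genes that fell over all libraries and between 0.118 and 0.737 without that library.

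Among 7227 other genes of mean FPKM at least 5, the gene with the course most like that of ELANE was PTGER2, a prostaglandin receptor gene, with r of 0.983, followed by PRTN3 and ANP32E, each with 0.978. For PRTN3 these were ACADM (0.987), P4HB (0.982) and ANP32E (0.978), and for SRGN they were VRK1 (0.981), PTGER2 (0.978) and OTULINL (0.976). AZU1 was nearest to FLT3, the receptor of early hematopoietic progenitors, with 0.988, then AL355922.1 (0.986) and CXCR4 (0.982), and LYZ to COTL1 (0.977), RNASE3 (0.974) and ACTB (0.969). CTSG was nearest to RMI1 (0.996), TSTA3 (0.995) and IGFBP7 (0.989), and CST7 to BRI3BP (0.992), LSP1 (0.991) and SPIN4 (0.99). Without the AML1-ETO library at 48 h, the 3 values of CST7 were 0.696, 0.584 and 0.656, and those of ELANE were 0.983, 0.958 and 0.955. SERPINB1 was nearest to PSMD12 (0.963), ERAL1 (0.942) and CD99 (0.937). Pearson's r does not reflect the size of a change, which differed among these genes. ACADM ranged from 37.2 to 55.8 FPKM over the libraries, beside 20.7 to 902 FPKM for PRTN3. RNASE3 ranged from 4.65 to 443 FPKM, beside 45.1 to 1520 FPKM for LYZ.

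Transcription factors known to act on granule genes were examined as a list of 14, of which 12 were compared. In AML1-ETO cells at 48 h, 6 fell and 1 rose, against 11.3% and 17.3% of all genes, with a median log2 fold change of -0.87 beside 0.22 for all genes. CEBPA, which drives granulocyte commitment, went from 98.5 to 37.5 and 6.62 FPKM at 0, 12 and 48 h. Its log2 fold change was -1.39 at 12 h and -3.89 (-4.08 to -3.71) at 48 h. CEBPB was the other of the 2 genes of the list that fell at 12 h in AML1-ETO cells, against 2.39% of all genes. It went from 30.4 to 14.9 FPKM, and was at 19.8 FPKM at 48 h. IRF8, a monocyte factor, went from 91.9 to 9.82 FPKM, SPI1, which encodes PU.1, from 92.6 to 11.9 FPKM, and ELF4 from 21.6 to 6.93 FPKM between 0 and 48 h. MYC and MYB also fell, by 1.35 and 1.09 on the log2 scale, and CEBPE, a factor of late granule genes, rose by 1.19. In ETO2-GLIS2 cells 2 of the 12 fell and 0 rose, against 2.54% and 10.8% of all genes. IRF8 went from 71.7 to 18.9 FPKM and CEBPA from 49.2 to 24.5 FPKM, a fall only just past the limit. In control cells 2 of the 12, CEBPB and CEBPE, rose and 0 fell, against 8.0% and 2.99% of all genes. RUNX1 ranged from 16.6 to 26.2 FPKM over all 9 libraries. In AML1-ETO cells, reads of the construct and of the gene itself cannot be told apart in these values.

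**Figure D5:**
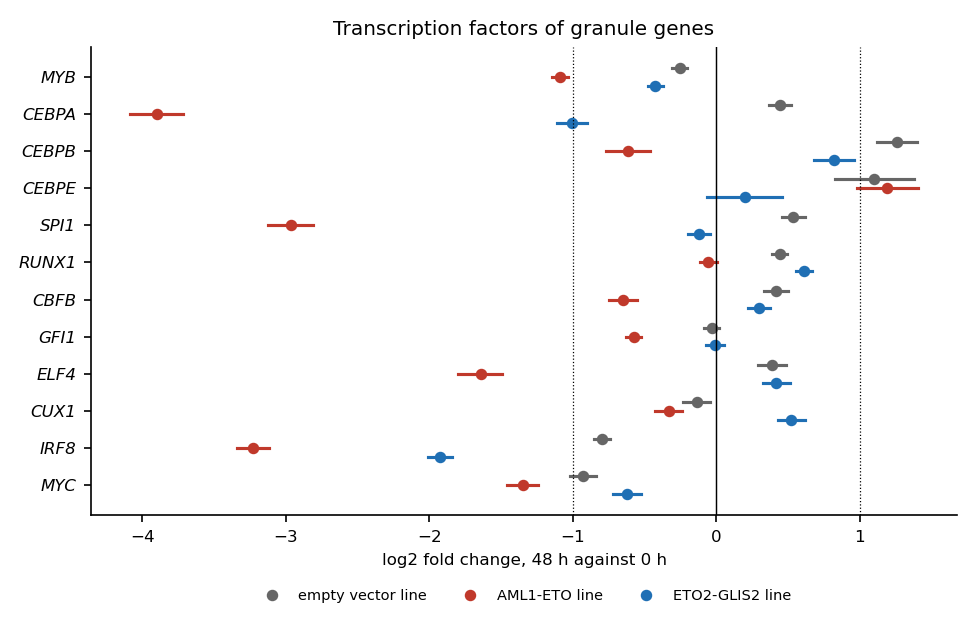
Log2 fold change from 0 to 48 h of the 12 transcription factor genes compared in the empty vector (grey), AML1-ETO (red) and ETO2-GLIS2 (blue) lines, with bars for 95% counting intervals and dotted lines at the 2-fold limit. CEBPA, IRF8 and SPI1 had the largest falls in AML1-ETO cells. IRF8 and CEBPA fell past the limit in ETO2-GLIS2 cells too, CEBPA only just.

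Other contents of azurophil granules were compared with the members from a list of 14 genes, of which 8 were compared. In AML1-ETO cells at 48 h 3 fell and 0 rose, against 11.3% and 17.3% of all genes, with a median log2 fold change of -0.42. RNASE3 and RNASE2, which encode the eosinophil cationic protein and its neurotoxin relative, went from 443 to 4.65 FPKM and from 309 to 5.2 FPKM. They are close paralogs, so reads could be divided between them. CD63, a membrane protein of these granules and of lysosomes, went from 77.5 to 34.7 FPKM. In ETO2-GLIS2 cells RNASE3 was the 1 of 8 genes that fell, from 350 to 99.8 FPKM, and 0 rose, against 2.54% and 10.8% of all genes. In control cells 0 were called, against 2.99% lower and 8.0% higher. Among 12 further protease inhibitor genes, 8 were compared, and CSTA, which encodes cystatin A, rose in all 3 lines. In AML1-ETO cells CSTA went from 18.8 to 57.4 FPKM and SERPINA1, which encodes the plasma inhibitor of elastase, from 2.31 to 4.89 FPKM, while CST3 fell from 99.1 to 45.9 FPKM. In AML1-ETO cells 2 of the 8 thus rose and 1 fell, against 17.3% and 11.3% of all genes. In control cells CSTA was the 1 of 8 that rose, against 8.0%. SLPI was the 1 that fell there, from 6.09 to 0.981 FPKM, against 2.99%. In ETO2-GLIS2 cells CSTA was the 1 called higher and 0 fell, against 10.8% and 2.54%. SERPINA1 went from 5.29 to 10.4 FPKM there, a rise just within the limit, and from 3.89 to 6.07 FPKM in control cells. For the enzymes that build the glycosaminoglycan chains of serglycin, 11 genes were compared. In AML1-ETO cells XYLT1 and CHSY1 fell, by 1.42 and 1.06 on the log2 scale, and 0 rose, against 11.3% and 17.3% of all genes. In control cells 0 were called, against 2.99% lower and 8.0% higher, and in ETO2-GLIS2 cells 0, against 2.54% and 10.8%.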

How the data were processed

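RNA of 9 U937 libraries was compared over 3 lines and 3 times. Per the labels and methods, HISAT2 (2.0.5) mapped the reads to hg38, SAMtools (1.7) processed the alignments and HTSeq (0.9.1) did the counting, and the authors deposited FPKM per gene. How exon length was defined, and on which annotation, is not given in the sources used here, and the TruSeq kit does not mark strand. HTSeq by default counts 1 strand only, which would leave out reads of the other strand, and whether this was so here could not be settled from the files. Because FPKM is relative to the library total, a change in abundant genes moves all other values.

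Reads were recovered from the deposited FPKM (whole reads for 153 of 153 genes listed) in Python (3.11.15), using scipy (1.17.1), numpy (2.4.6) and pandas (2.3.3), with matplotlib (3.10.9) for plots. They served for 95% intervals only, so no count model was run. Recovery and calling were tested on simulated data. Genes listed at 0 in every library counted as recovered with 0 reads. The exon length implied by the recovery equalled the annotated exon bases for 8 of 10 members. Totals were 15136000 to 18444000 reads. Genes were called past a 2-fold limit on log2 of FPKM plus a pseudocount of 0.01, which understates changes of low genes, and at least 1 FPKM on average. With 1 library per condition no test was made. Coordinates and promoters come from RefSeq (GRCh38.p14), and exon overlaps from a GRCh37 annotation.

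The members, gene lists and motifs were chosen with earlier results of these data known. The genes named are all members, at most 4 genes per list and direction called at 48 h in a fusion line, the genes between PRSS57 and CFD and between CMA1 and GZMB, the 3 genes most correlated with each member that averaged at least 5 FPKM, and the genes of the constructs. SLPI, CEBPB and the marker NKG7 were named after their values were seen, and some genes that this rule would name are not reported here. Alternatives covered the pseudocount, filter, scaling, fold limit, control and reference library. The correlations without the AML1-ETO library at 48 h were added after seeing the data. Chromatin and PCR experiments were not analysed here.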

Additional observations from a re-analysis of the deposited data

Results flagged for a closer look

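CTSG stood out because its 2 induced libraries moved opposite ways in 2 lines. In AML1-ETO cells its log2 fold change was -0.40 at 12 h and -5.01 at 48 h, and in control cells it was 0.95 and 0.40, each with a counting interval that excluded 0. The difference between the AML1-ETO and control cells at 48 h was -5.40. It was not tested, since each condition had 1 library. Of 30 comparisons of a member between 2 lines, this was the 1 that met the criterion.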

How the results depend on the processing

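The 7 members lower in AML1-ETO cells at 48 h stayed 7 under every alternative run. Counts that moved by more than 1.5 times were these. With no filter on low values, members higher at 48 h were 1 in control, 2 in AML1-ETO and 1 in ETO2-GLIS2 cells, and at 12 h they were 2 and 1 in the fusion lines, since MPO then entered. With a 1.5-fold limit control cells had 1 higher at 48 h and 1 higher and 1 lower at 12 h, AML1-ETO cells 2 higher at 12 h and 3 higher at 0 h, and ETO2-GLIS2 cells 1 higher and 2 lower at 12 h and 3 higher at 0 h. With a 4-fold limit control cells had 1 lower and ETO2-GLIS2 cells 2 lower at 48 h, and AML1-ETO cells at 48 and 12 h, like ETO2-GLIS2 cells at 0 h, had 0 higher. With a pseudocount of 1, or a mean FPKM of at least 5, 0 were higher in AML1-ETO cells at 48 and 12 h. After the control values were subtracted, AML1-ETO cells had 0 higher at both times and 1 lower (CTSG) at 12 h, and ETO2-GLIS2 cells had 2 lower at 48 h and 1 lower (PRSS57) at 12 h. Against control cells at 0 h, 2 members were higher at 12 h in each fusion line and 3 were lower at 48 h in ETO2-GLIS2 cells. Against 12 h, AML1-ETO cells had 0 higher at 48 h, whereas ETO2-GLIS2 cells had 1. The other 134 counts stayed within 1.5 times. The cause was not tested where none is given.

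Of the single-gene values, 0 of the called ones changed sign, 126 stayed within their counting interval and 94 left it. Rescaling by the median ratio lowered the log2 fold change of every gene at 48 h, by 0.13 in control and ETO2-GLIS2 cells and 0.15 in AML1-ETO cells. No paired analysis was possible because the times were compared within each line, which had 1 library at each, and the results come from no test. Leaving out a replicate was not possible with 1 library, and summing identifiers changed nothing because each member had 1. At 9 to 45 reads for MPO, only changes of several-fold are detectable.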

Other observations

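Of 17 genes of specific and gelatinase granules, which form later, 4 were compared in AML1-ETO cells and 5 in each other line at 48 h. In AML1-ETO cells 2 of the 4 fell and 0 rose, against 11.3% and 17.3% of all genes. CHI3L1, which encodes the chitinase-like protein YKL-40, went from 423 to 13.9 FPKM and MMP25, a membrane metalloproteinase gene, from 4.32 to 0.789 FPKM. In control and ETO2-GLIS2 cells 3 of the 5, MMP25, CAMP and PTX3, rose, against 8.0% and 10.8% of all genes. MMP25 went from 3.14 to 10.5 FPKM and from 4.32 to 11.5 FPKM. In control cells the rise of CAMP rests on 9 reads at 0 h and 24 at 48 h, and that of PTX3 on 40 and 89. FCN1 was the 1 of the 5 that fell in ETO2-GLIS2 cells, from 1.62 to 0.806 FPKM, against 2.54% of all genes.

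Of 15 genes for granule sorting or congenital neutropenia, 5 fell in AML1-ETO cells at 48 h and 1 rose, against 11.3% and 17.3% of all genes. LYST, mutated in Chediak-Higashi syndrome, went from 29.1 to 10.7 FPKM, NBEAL2 from 25 to 9.33 FPKM, STXBP2 from 10.3 to 3.95 FPKM and CXCR2 from 6.89 to 3.01 FPKM. STXBP2 rose in control cells, from 8.26 to 20.2 FPKM. HAX1, the Kostmann disease gene, rose in all 3 lines, by 1.22, 1.22 and 1.24 on the log2 scale in control, AML1-ETO and ETO2-GLIS2 cells. Of the 15, 2 rose in control cells and 1 in ETO2-GLIS2 cells, against 8.0% and 10.8% of all genes. Of 12 genes for myeloperoxidase folding and heme synthesis, PPOX and UROS rose and CALR, the chaperone gene of the calreticulin protein, fell in AML1-ETO cells, by 1.57 on the log2 scale, so that 2 of 12 rose and 1 fell, against 17.3% and 11.3% of all genes. CALR was the 1 of 12 called in ETO2-GLIS2 cells, where it fell by 1.06, against 2.54% of all genes. In control cells its log2 fold change was -0.94, within the limit.

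Of 12 monocyte and macrophage maturation genes, 4 were compared in AML1-ETO cells, where CD36 went from 0.166 to 6.72 FPKM and ITGAX from 1.95 to 6.86 FPKM. Among the genes that rose in ETO2-GLIS2 cells were ITGAM and ITGAX, ITGAM from 2.23 to 11.5 FPKM, and ITGAM also rose in control cells, from 1.17 to 2.78 FPKM. Of the 6 U937 markers ITGAL and SPI1 fell in AML1-ETO cells and 0 rose, against 11.3% and 17.3% of all genes. ITGAL went from 2.53 to 0.267 FPKM there. It went from 4.02 to 23.8 FPKM in control cells and from 7.24 to 26.8 FPKM in ETO2-GLIS2 cells. NKG7 was among the 2 markers of other cells that were compared in AML1-ETO cells, and 2 were called lower, against 11.3% of all genes.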
